A study of Mus musculus with 18 samples.

Results

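The nuclear-encoded arginine tRNAs that carry the anticodons ACG, CCG, CCT and TCG were measured in hippocampi of WT and 5xFAD mice. They were chosen by name, as every tRNA annotated with arginine and an anticodon other than TCT, and no measured value was used. The 4 families held 33 of the 548 tRNA entries of the series, of which 14 were mature tRNAs (of 213) and 19 were pre-tRNA loci (of 335). tRNA-Arg-ACG (Arg-ACG below) had 3 mature tRNAs and 6 loci, tRNA-Arg-CCG 3 and 3, tRNA-Arg-CCT 4 and 5, and tRNA-Arg-TCG 4 and 5.

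Hydro-tRNA-seq libraries had been made from 18 male mice, 1 library per mouse. The 5xFAD line is a transgenic model of Alzheimer's disease, and the WT animals had a B6SJL background. At 6 months of age, all mice received bilateral injections into the CA1 and the dentate gyrus of the hippocampus of a neuron-targeted rAAV2/8 virus with GFP, and tissue was taken 4 weeks later. WT shCT mice (n = 5) and 5xFAD shCT mice (n = 3) received the virus with a control shRNA. WT shRTP801 mice (n = 4) and 5xFAD shRTP801 mice (n = 6) received the virus with an shRNA against RTP801, a stress protein that the study related to the tRNA ligase complex. The control mice were therefore injected and transduced too, and uninjected mice were not analysed here. RTP801 mRNA lies outside the size range that was sequenced, so its silencing could not be checked in these libraries. Both hippocampi were dissected, so transduced neurons were mixed with all other cells, and fewer cells of a type and less RNA per cell cannot be told apart.

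Arginine is encoded by 6 codons, more than most amino acids, and its tRNAs divide them by anticodon. The ACG anticodon is edited by the ADAT enzymes, which turn its first base into inosine, and the edited tRNA reads CGU, CGC and CGA. The tRNA with TCG reads CGA, the tRNA with CCG reads CGG, and the tRNA with CCT reads AGG. The remaining anticodon, TCT, reads AGA. Its family includes pre-tRNAs with an intron. It also includes a tRNA that is specific to the nervous system, Arg-TCT-4, whose locus has no intron according to the study. A pre-tRNA is cut at its 5′ leader and its 3′ trailer before the mature tRNA is used in translation. None of the loci described here is among the intron-containing tRNAs that the study listed.

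In this assay, RNA of 60 to 100 nucleotides was cut from a gel, broken by alkaline hydrolysis and sequenced, so that a read covers a piece of a tRNA. The level of a family is given here as the percentage of all mature tRNA reads, or of all precursor tRNA reads, of the same library, without a correction for length. Isodecoders, tRNAs with the same anticodon but different bodies, are numbered (Arg-CCG-1, Arg-CCG-2), and the loci of a tRNA carry another number (Arg-ACG-2-1). The libraries held 18126375 to 34488923 reads, of which 9850676 to 20292469 came from mature tRNAs and 47875 to 318628 from precursors. 3 libraries stood apart from the rest, namely WT shCT replicate 5, WT shRTP801 replicate 4 and 5xFAD shRTP801 replicate 7. At most 0.435% of their reads came from mitochondrial tRNAs, against at least 8.59% in the other 15, and mature tRNAs took 98.0% to 98.7% of their reads, against at most 85.8% elsewhere. 5xFAD shCT mice had no such library. Of the tissue markers, brain-specific tRNA-Arg-TCT-4 had 61 to 6619 reads in all 18 libraries, Snord116 had reads in 15, the Mir124a genes and Mir9-1 had 0 to 46 reads per library and Snord115 was not listed, while Mir122 of liver, Mir1a and Mir133a of muscle and Mir451a and Mir144 of red blood cells were not listed either.

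Among mature tRNAs, Arg-CCT was the most abundant of the 4 families, with 1.60% of the reads on average, and 11 of the 50 families lay above it. Arg-ACG had 0.851%, Arg-CCG 0.725% and Arg-TCG 0.418%, with 15, 16 and 26 families above them, and Arg-TCT had 0.118%. The 4 families together held 2.40% to 5.45% of mature reads in WT shCT mice. The order of Arg-ACG and Arg-CCG was not beyond their spread, since Arg-ACG ran from 0.452% to 1.36% over the 18 mice and Arg-CCG from 0.529% to 0.908%.

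Arg-CCT, the tRNA of the AGG codon, varied widely. Its shares were 1.97%, 2.14%, 0.691%, 2.93% and 1.44% in WT shCT mice, 3.10%, 0.671%, 1.71% and 1.48% in WT shRTP801 mice and 0.924%, 0.744% and 2.27% in 5xFAD shCT mice. In 5xFAD shRTP801 mice, the lowest share was 0.585%, the median 1.19% and the highest 2.58%. Low and high mice were present in every group, and the groups overlapped.

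Arg-CCG, the tRNA of the CGG codon, was the steadiest of all 50 mature families, with a coefficient of variation of 15.6% over the 18 mice (median of the families 35.8%). Its shares were 0.693%, 0.733%, 0.757%, 0.702% and 0.812% in WT shCT mice, 0.762%, 0.654%, 0.580% and 0.906% in WT shRTP801 mice and 0.908%, 0.529% and 0.880% in 5xFAD shCT mice. In 5xFAD shRTP801 mice, they ran from 0.584% to 0.815%, with a median of 0.703%. The coefficient of variation was 28.6% for Arg-ACG, 46.7% for Arg-TCG and 50.6% for Arg-CCT. Without the 3 libraries that stood apart, that of Arg-CCG was 17.0%, and 1 of the 50 families was steadier.

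The isodecoders within Arg-CCG were less steady than their total. Arg-CCG-3 took 49.2% to 86.6% of the family (median 81.4%), Arg-CCG-1 10.6% to 43.1% (median 14.6%) and Arg-CCG-2 2.80% to 9.03%. Arg-CCG-3 was at 50.1%, 51.0% and 49.2% of the family in the 3 libraries that stood apart, and at 56.6% or more in the other 15. As a share of all mature reads, Arg-CCG-1 was at 0.296% to 0.315% in those 3 libraries and at 0.0563% to 0.246% in the others. Arg-CCG-3 had the opposite order, with 0.338% to 0.388% against 0.387% to 0.772%. The part of the mature tRNA share of a library in this was not tested. Between groups, Arg-CCG-3 made up 71.1%, 50.1%, 83.5%, 56.6% and 84.8% of the family in WT shCT mice and 85.0%, 86.6% and 79.8% in 5xFAD shCT mice, which overlapped (exact permutation p = 0.20, and 0.29 without the 3 libraries).

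Arg-ACG-1 was the main tRNA of its family in every mouse, with 61.2% to 69.8% of the reads, followed by Arg-ACG-3 with 24.0% to 32.3% and Arg-ACG-2 with 4.80% to 9.48%. Arg-CCT-4 held 66.0% to 80.4% of Arg-CCT, and Arg-CCT-1, Arg-CCT-2 and Arg-CCT-3 averaged 13.3%, 7.50% and 5.37%. In Arg-TCG, which reads CGA, Arg-TCG-1 had 45.6% ± 5.71 (SD, n = 18) and Arg-TCG-2 34.01% ± 4.32, with smaller parts for Arg-TCG-3 (14.2%) and Arg-TCG-4 (6.24%). The composition of these 3 families thus varied less between mice than that of Arg-CCG.

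The TCG family was also high in the libraries that stood apart. It had 0.725% to 0.804% of mature reads there and 0.171% to 0.653% in the other 15. Its shares were 0.472%, 0.775%, 0.318%, 0.653% and 0.280% in WT shCT mice, 0.804%, 0.273%, 0.238% and 0.349% in WT shRTP801 mice and 0.312%, 0.171% and 0.343% in 5xFAD shCT mice. In 5xFAD shRTP801 mice, they ran from 0.250% to 0.725%, with a median of 0.398%. For Arg-ACG, the values were 0.944%, 1.36%, 0.632%, 1.17% and 0.904% in WT shCT mice, 1.05%, 0.597%, 0.694% and 0.788% in WT shRTP801 mice, 0.695%, 0.452% and 0.955% in 5xFAD shCT mice and 0.587% to 1.05% (median 0.905%) in 5xFAD shRTP801 mice. Counting error was small beside these differences, since the Wilson 95% interval of a mature family in a library was at most 1.32% of the share to either side. Intervals here cover counting error only.

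**Figure D1:**
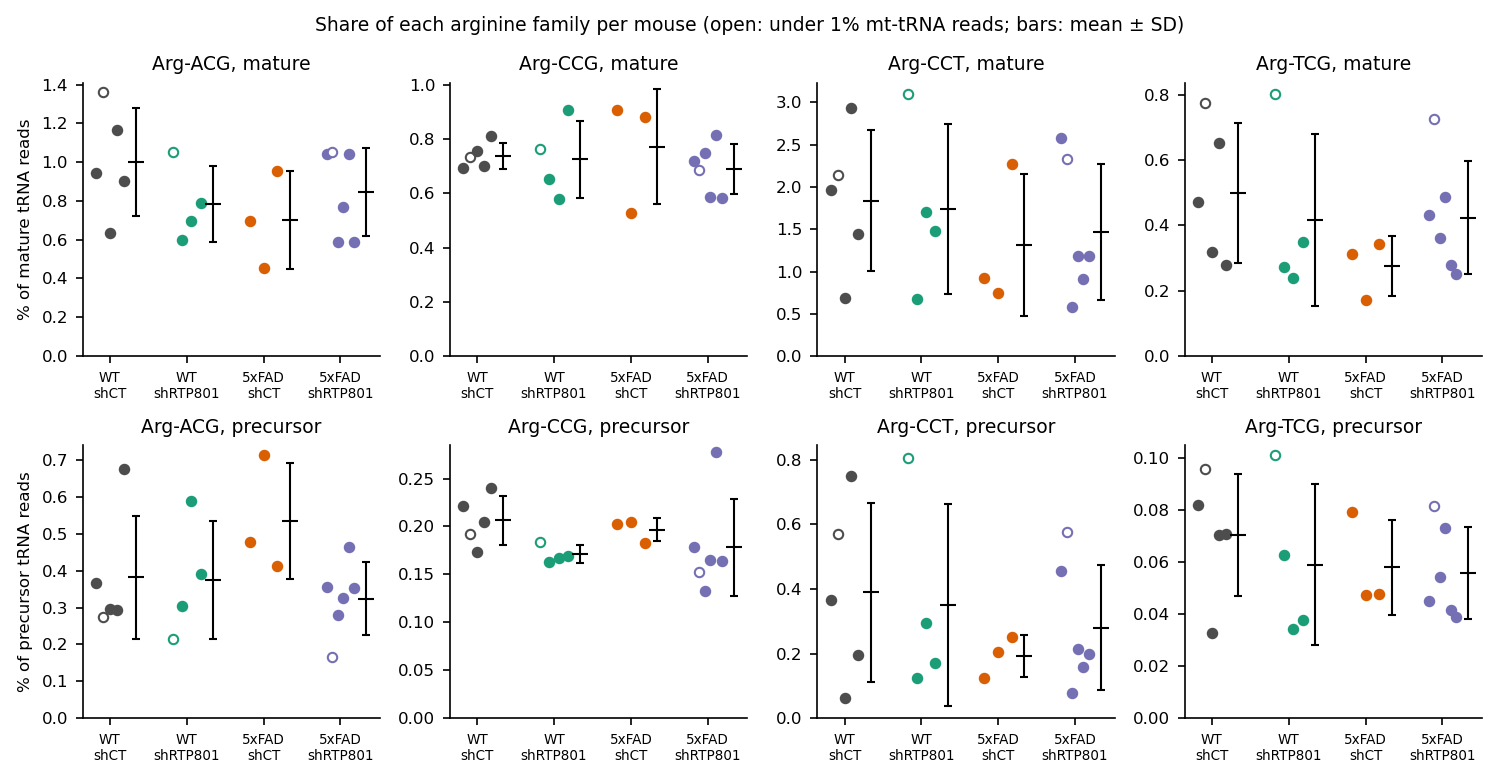
Share of the 4 arginine families in mature (top) and precursor (bottom) tRNA reads, in percent, by group. Each point is a mouse, open points are the 3 libraries with under 1% mitochondrial tRNA reads, and bars give the mean and SD. Mature Arg-CCG stays between 0.529% and 0.908% while Arg-CCT runs from 0.585% to 3.10%, and the groups overlap in every panel.

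Reads of the arginine tRNAs came mostly from the 3′ end, as did those of most families. Reads at the 3′ end made up 99.8% ± 0.182 of Arg-ACG, 99.4% ± 0.399 of Arg-TCG, 97.8% ± 0.506 of Arg-CCG and 86.1% ± 5.27 of Arg-CCT (SD, n = 18). The median of the 50 families was 92.5%, so that Arg-CCT lay below it, Arg-TCT had 92.6%, and all mature reads pooled had 73.5% ± 12.5. The value of Arg-CCT depends on internal reads with equal or nearly equal counts in Arg-CCT-1, Arg-CCT-2 and Arg-CCT-3, as described below. Reads of the whole tRNA averaged at most 0.0745% of a family, and those of the 5′ end 0.0764% in Arg-ACG, 0.175% in Arg-CCT, 0.221% in Arg-TCG and 1.37% in Arg-CCG. The median family had 0.513%, below Arg-CCG and above the other 3, and all mature reads pooled had 11.4%. The levels above therefore rest on the 3′ part of these tRNAs.

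Arg-CCG-3 and the Arg-CCT tRNAs, chosen after their values were seen, departed most from this pattern. Arg-CCG-3 had 2.03% ± 1.28 of its reads at the 5′ end, and Arg-CCG-1 and Arg-CCG-2 had 0.0598% and 0.232%. Internal reads, which touch neither end, made up 55.2% ± 10.6 of Arg-CCT-3, more than in any of the other 13 tRNAs, followed by 36.6% of Arg-CCT-2, 20.9% of Arg-CCT-1 and 6.83% of Arg-CCT-4. In the 10 tRNAs of the other families, they averaged at most 1.57%.

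Some tRNAs had equal or nearly equal counts. The internal reads of Arg-CCT-1 and Arg-CCT-2 were the same number in 18 of 18 libraries (145907 in all), and Arg-CCT-3 had 151342, which differed by 3.59% summed over the libraries. The 3′ reads of Arg-CCG-1 (436884) and Arg-TCG-2 (428427) differed by 4.91% summed over the libraries and were identical in 0 of them, and whether these tRNAs share reads was not tested. For the Arg-CCT tRNAs, the counts do not show from which of them the internal reads came, so their shares are uncertain. Arg-CCG-1 and Arg-TCG-2 were also both high in the 3 libraries that stood apart, but this was not particular to them. Arg-ACG-2, Arg-TCG-3 and Arg-TCG-4 likewise lay higher in those 3 libraries than in any of the other 15. No read in the antisense direction was found at any of the 4 families.

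**Figure D2:**
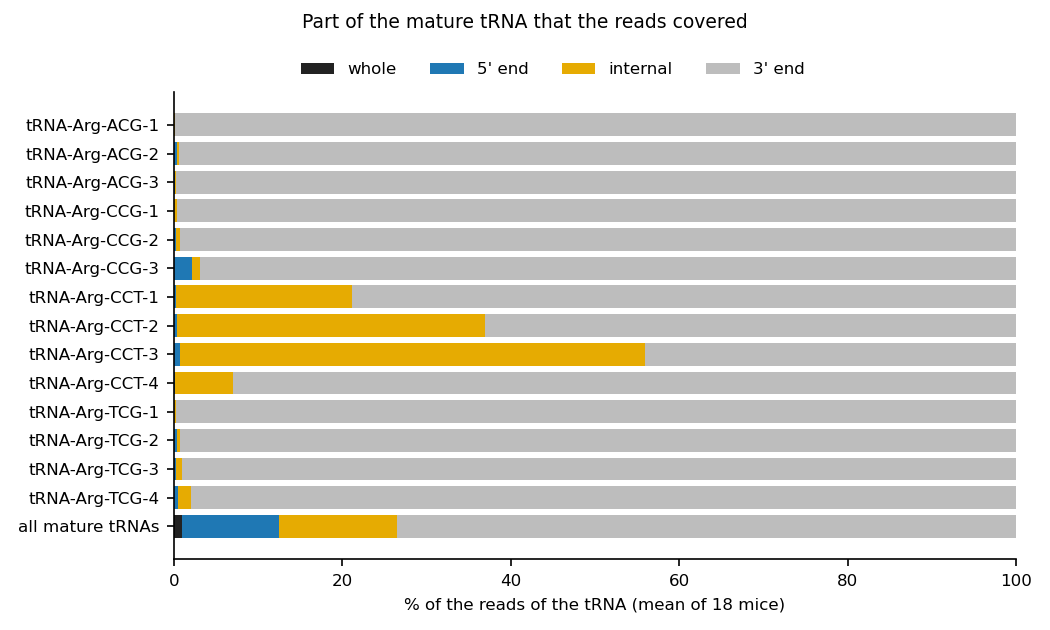
Part of the mature tRNA that the reads covered, as the mean percentage of the reads of each tRNA over 18 mice (bars add up to 100%), for the 14 arginine tRNAs and for all mature tRNAs. Reads of the 3′ end (grey) fill nearly all of the bars of the arginine tRNAs outside Arg-CCT. In the Arg-CCT tRNAs, they fill 93.0% in Arg-CCT-4 and less in the others, where internal reads (yellow) reach 55.2% in Arg-CCT-3. For all mature tRNAs, 3′ reads fill 73.5%.

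Among precursor reads, the order of the families was different. Arg-ACG was the highest with 0.386% of precursor reads, followed by Arg-CCT with 0.311%, Arg-CCG with 0.188% and Arg-TCG with 0.0610%, so that 24, 26, 32 and 41 of the 48 families lay above them. Arg-TCT had 0.0615%. Arg-CCG was the steadiest precursor family too, with a coefficient of variation of 18.2% (median of the families 53.0%), while Arg-CCT varied by 73.1%. Without the 3 libraries that stood apart, Arg-CCG varied by 19.1% and 2 of the 48 families were steadier. These shares rest on few reads, with 18 to 260 reads of Arg-TCG per library, and the Wilson 95% interval of a family reached 15.8% of the share to either side for Arg-ACG, 21.6% for Arg-CCG, 34.1% for Arg-CCT and 47.4% for Arg-TCG.

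The precursor reads of Arg-CCG were 0.221%, 0.192%, 0.173%, 0.205% and 0.240% in WT shCT mice, 0.184%, 0.163%, 0.167% and 0.169% in WT shRTP801 mice and 0.203%, 0.205% and 0.183% in 5xFAD shCT mice. In 5xFAD shRTP801 mice, they ran from 0.133% to 0.277%, with a median of 0.164%. They came mainly from Arg-CCG-3-1, which held 77.3% ± 13.9 of the family, and Arg-CCG-2-1 and Arg-CCG-1-1 held 11.7% and 11.03%. The precursors of Arg-CCT were far more variable, with 0.367%, 0.571%, 0.0620%, 0.751% and 0.196% in WT shCT mice, 0.806%, 0.126%, 0.295% and 0.171% in WT shRTP801 mice, 0.124%, 0.205% and 0.251% in 5xFAD shCT mice and 0.0769% to 0.576% (median 0.206%) in 5xFAD shRTP801 mice. Those of Arg-TCG had 0.0821%, 0.0959%, 0.0328%, 0.0704% and 0.0710% in WT shCT mice, 0.101%, 0.0630%, 0.0343% and 0.0376% in WT shRTP801 mice, 0.0791%, 0.0472% and 0.0479% in 5xFAD shCT mice and 0.0388% to 0.0816% (median 0.0497%) in 5xFAD shRTP801 mice. All groups overlapped in both families.

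In Arg-ACG, the loci Arg-ACG-3-2 (0.120% of precursor reads), Arg-ACG-3-1 (0.113%) and Arg-ACG-1-3 (0.0551%) were the highest, so the loci of Arg-ACG-3 led the precursors and Arg-ACG-1 the mature tRNAs. In Arg-CCT, these were Arg-CCT-4-1 (0.119%), Arg-CCT-2-2 (0.0825%) and Arg-CCT-2-1 (0.0470%), and in Arg-TCG, Arg-TCG-1-1 (0.0355%), Arg-TCG-2-1 (0.00837%) and Arg-TCG-4-1 (0.00730%). All 19 loci had reads, but Arg-CCT-3-1 and 3 of the Arg-TCG loci (Arg-TCG-3-1, Arg-TCG-3-2 and Arg-TCG-4-1) had none in at least 1 library.

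Nearly all precursor reads of the families were partial pre-tRNA reads, which run over 1 end of the mature tRNA. They made up 100% of Arg-CCG and Arg-TCG and 96.5% of Arg-ACG, and reads of a whole pre-tRNA numbered 3 in Arg-ACG and 1 in Arg-CCT over all libraries. Trailer reads, which lie in the 3′ trailer, were 201 in Arg-ACG, 2 in Arg-CCT and 0 in Arg-CCG and Arg-TCG. A count of 0 allows a share of up to 0.0921% of the precursor reads of Arg-CCG and 0.240% of those of Arg-TCG. Because the RNA was hydrolysed, the counts do not show whether the trailer had been cut from the pre-tRNA. All 201 came from the locus Arg-ACG-1-3, in 14 of the 18 mice, and were 44.97% of the 447 trailer reads of the whole series.

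The precursor and mature shares of a family moved together over the mice in Arg-CCT. The correlation was r = 0.91 (permutation p = 1e-05, the smallest that 100000 resamples can give, adjusted p = 4e-05 over 4 families) and Spearman's rho = 0.91 (permutation p = 1e-05) over 18 mice. It was r = 0.85 without the 2 mice farthest from the median mature share (WT shRTP801 replicate 4 and WT shCT replicate 11), r = 0.89 in the 15 libraries that did not stand apart (permutation p = 1e-05) and r = 0.91 with the mean of each group removed. 4 of the 48 families had a higher r, and the median was 0.53.

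In Arg-TCG, r was 0.77 (permutation p = 0.00024, adjusted p = 0.00048) and rho 0.65 (permutation p = 0.0042) over 18 mice. It was r = 0.48 (permutation p = 0.065, adjusted p = 0.13) in the 15 libraries, where the median of the families was 0.49, and 0.59 without the 2 farthest mice. The relation was thus weaker without the libraries that stood apart. With the mean of each group removed, r was 0.79 over 18 mice. Arg-CCG had r = 0.26 (permutation p = 0.29) and rho = 0.34 (permutation p = 0.17), and Arg-ACG r = -0.38 (permutation p = 0.12) and rho = -0.40 (permutation p = 0.105). Without the 2 farthest mice, r was 0.34 in Arg-CCG and -0.12 in Arg-ACG, and in the 15 libraries it was 0.26 and -0.17. 46 families had a higher r than Arg-ACG, and Arg-TCT had the lowest, -0.51. Both shares come from the same library and are parts of a whole, so they are not independent of its depth and composition.

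**Figure D3:**
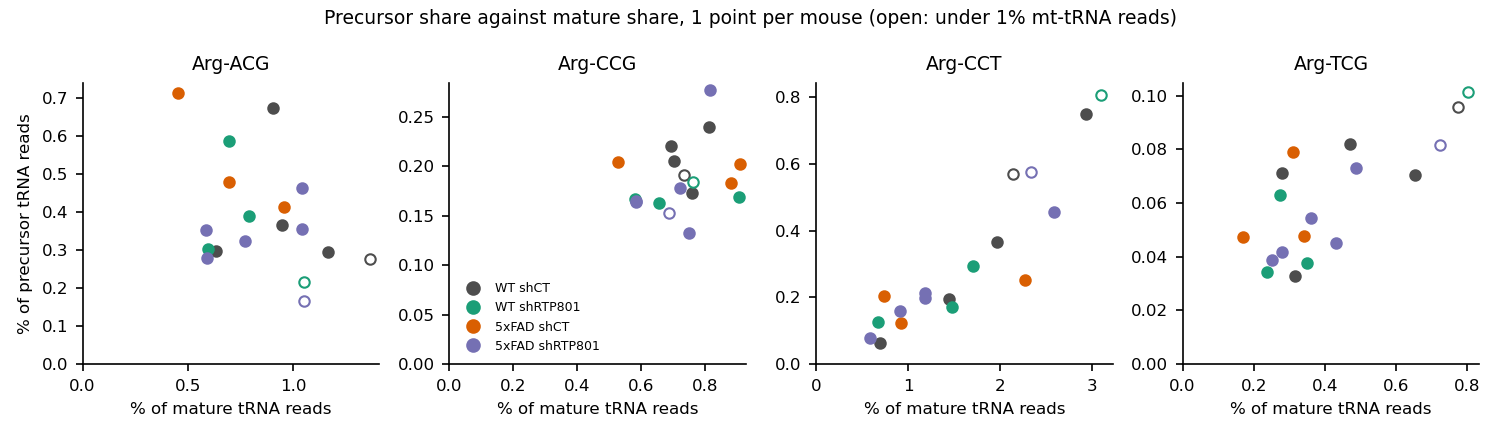
Share of precursor tRNA reads (vertical axis, percent) against share of mature tRNA reads (horizontal axis, percent) for the 4 arginine families. Each point is a mouse, coloured by group, and open points are the 3 libraries with under 1% mitochondrial tRNA reads. Arg-CCT rises along a line (r = 0.91), and Arg-ACG does not (r = -0.38).

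The comparison of 5xFAD shCT with WT shCT mice asked whether the disease model alone changes the arginine tRNAs. The 4 families together took 3.06% ± 1.29 of mature reads (SD, n = 3) in 5xFAD shCT mice and 4.08% ± 1.22 (n = 5) in WT shCT mice, with a two-sided exact permutation p of 0.27. The log2 ratio was -0.41, or -0.33 without the 3 libraries that stood apart (exact permutation p = 0.46), -0.16 without 5xFAD shCT replicate 16 and -0.78 without 5xFAD shCT replicate 18. In precursors, they took 0.983% ± 0.161 and 1.05% ± 0.288 (exact permutation p = 0.79). With limma on log2(percentage + 0.001%) and Benjamini-Hochberg adjustment over all features, 0 of the 4 mature and 0 of the 4 precursor families had an adjusted p under 0.05 or an unadjusted p under 0.05 (0% and 4.08% of the 49 mature, 0% and 12.5% of the 48 precursor families). All 14 mature tRNAs and all 19 loci passed the filter of a mean of 0.001%. Of the 14, 0 passed adjustment and 1, Arg-TCG-1, had an unadjusted p under 0.05 (0% and 5.38% of 186), and of the 19 loci 0 and 1, Arg-ACG-2-1 (0% and 15.6% of 333). edgeR and DESeq2 on the reads also gave 0 with an adjusted p under 0.05, and at an unadjusted p under 0.05 edgeR gave the mature families Arg-ACG and Arg-TCG, Arg-TCG-1 and the loci Arg-ACG-2-1 and Arg-CCT-1-1, and DESeq2 mature Arg-TCG, Arg-TCG-1 and Arg-ACG-2-1. At that level, edgeR called 8.16% of all mature families, 3.23% of mature tRNAs and 14.7% of loci, and DESeq2 8.16%, 6.45% and 15.3%. The median log2 change of the 14 mature tRNAs was -0.61, against 0.31 over the 186, and 1 of the 14, Arg-CCG-3, had a positive value (0.33). That of the 19 loci was -0.25, against 0.03 over the 333. Without WT shCT replicate 11, the pooled precursor share had the opposite sign (0.0046 on the log2 scale, against -0.092).

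Arg-TCG-1, which reads CGA, had 0.260%, 0.308%, 0.152%, 0.319% and 0.138% of mature reads in WT shCT mice and 0.126%, 0.0637% and 0.139% in 5xFAD shCT mice. The values of the 5xFAD shCT mice lay below those of the WT shCT mice except that replicate 18 (0.139%) was above WT shCT replicate 15 (0.138%). The fitted log2 change was -1.09 ± 0.44 (SE; limma p = 0.025, adjusted p = 0.54), and the exact permutation p was 0.054, or 0.17 without the 3 libraries that stood apart, 1 of which (0.308%) was a WT shCT mouse. The family Arg-TCG had a log2 change of -0.81 ± 0.45 (limma adjusted p = 0.50). It was -0.63 without the 3 libraries that stood apart, -0.50 without 5xFAD shCT replicate 16, -0.22 with the mature share of the library as a covariate and -1.58 with deposited normalized counts.

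The silencing of RTP801 in WT mice was compared next. The 4 families together had 3.66% ± 1.48 (SD, n = 4) of mature reads in WT shRTP801 and 4.08% ± 1.22 in WT shCT mice (exact permutation p = 0.65), and 0.954% ± 0.298 and 1.05% ± 0.288 of precursor reads (exact permutation p = 0.63). In limma, 0 families, 0 mature tRNAs and 0 loci had an adjusted or an unadjusted p under 0.05. Of all features, 12.2% of mature families, 4.17% of precursor families, 10.8% of mature tRNAs and 10.2% of loci had an unadjusted p under 0.05, and 0% had an adjusted one. edgeR and DESeq2 likewise gave 0 of the arginine tRNAs at either level. Of all features, edgeR gave an unadjusted p under 0.05 for 5 of 49 mature families, 2 of 48 precursor families, 15 of 186 mature tRNAs and 25 of 333 loci. DESeq2 gave 6, 3, 17 and 32, and an adjusted p under 0.05 for 1 mature family and 1 mature tRNA. The median log2 change of the 14 mature tRNAs was -0.24, against 0.06 over the 186, and that of the 19 loci 0.00021, against -0.06 over the 333. Without WT shRTP801 replicate 10, both pooled shares had the opposite sign, at 0.028 in mature reads (-0.15 with all mice) and 0.0077 in precursor reads (-0.14). Without the 3 libraries that stood apart, they were -0.37 and -0.30.

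Precursor Arg-CCG was 0.171% ± 0.00917 in WT shRTP801 and 0.206% ± 0.0258 in WT shCT mice, with an exact permutation p of 0.032 and an adjusted p of 0.63 over 40 exact tests. WT shRTP801 mice lay at 0.163% to 0.184%, below 4 of the 5 WT shCT mice, and the limma log2 change was -0.26 ± 0.23 (adjusted p = 0.54). The locus Arg-ACG-1-2 did not overlap between the groups. It had 0.0657%, 0.0398%, 0.0383%, 0.0421% and 0.0522% of precursor reads in WT shCT mice and 0.0273%, 0.0236%, 0.0366% and 0.0349% in WT shRTP801 mice, and all of the latter were lower. It was 1 of the 19 loci without overlap, beside 1.5% of the 333, and its log2 change was -0.61 ± 0.38 (limma adjusted p = 0.68).

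In 5xFAD mice, the comparison of RTP801 silencing with the control shRNA held the smallest p both of the limma fits of the arginine families, tRNAs and loci (the locus Arg-ACG-2-1) and of the 40 exact tests of shares (precursor Arg-ACG). The 4 families together held 3.42% ± 1.09 of mature reads with silencing (n = 6) and 3.06% ± 1.29 without (n = 3, exact permutation p = 0.60), and 0.838% ± 0.183 and 0.983% ± 0.161 of precursor reads (exact permutation p = 0.31). In limma, 0 families and 0 of the 14 mature tRNAs had an adjusted or unadjusted p under 0.05 (unadjusted 2.04% of mature families, 4.17% of precursor families and 1.08% of mature tRNAs). Of the 19 loci, 0 passed adjustment and 1, Arg-ACG-2-1, had an unadjusted p under 0.05 (0% and 7.51% of 333). edgeR and DESeq2 gave 0 with an adjusted p under 0.05, and both gave Arg-TCG-1 and Arg-ACG-2-1 at an unadjusted p under 0.05, a level at which edgeR called 1.08% of mature tRNAs and 9.31% of loci and DESeq2 4.3% and 8.41%. The median log2 change of the 14 mature tRNAs was 0.28, against -0.22 over the 186, with 11 positive values, and that of the 19 loci -0.09, against -0.13 over the 333. The 5xFAD shCT mice are the same as in the comparison of genotypes. The sign of the pooled shares depended on the setting. The precursor share had a log2 ratio of -0.23 as a percentage of precursor reads and 1.25 as a percentage of all reads. The latter includes 5xFAD shRTP801 replicate 7, 1 of the libraries that stood apart, where precursors were 1.69% of all reads. In the other mice of its group, they were at most 0.463%. The mature share had 0.16 with all mice, -0.090 without 5xFAD shCT replicate 16 and 0.041 without the 3 libraries that stood apart.

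Precursor Arg-ACG was 0.478%, 0.712% and 0.414% in 5xFAD shCT mice and ran from 0.167% to 0.465% (median 0.339%) in 5xFAD shRTP801 mice. The groups overlapped because 5xFAD shRTP801 replicate 14 (0.465%) lay above 5xFAD shCT replicate 18 (0.414%). The exact permutation p was 0.024, with an adjusted p of 0.63 over 40 exact tests, and the limma log2 change was -0.75 ± 0.38 (adjusted p = 0.57), or 0.094 with the deposited normalized counts, which are not percentages of precursor reads. In WT shCT mice, the shares were 0.366%, 0.276%, 0.297%, 0.294% and 0.675%, and in WT shRTP801 mice 0.216%, 0.303%, 0.588% and 0.390%.

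Arg-ACG-2-1 is the only locus listed for Arg-ACG-2, the least abundant mature tRNA of its family. It had 0.0313%, 0.0728% and 0.0522% of precursor reads in 5xFAD shCT mice (19, 37 and 36 reads) and 0.00641% to 0.0224% in 5xFAD shRTP801 mice, with a median of 0.0126%. These groups did not overlap, which held for 1 of the 19 loci and 5.71% of the 333. In WT shCT mice, it had 0.0105%, 0.0144%, 0.0346%, 0.0122% and 0.0292%, and in WT shRTP801 mice 0.010%, 0.00984%, 0.0332% and 0.0376%. Both WT groups reached from the levels of 5xFAD shRTP801 mice to above the lowest 5xFAD shCT mouse.

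The fitted log2 change of Arg-ACG-2-1 between 5xFAD shRTP801 and 5xFAD shCT mice was -1.87 ± 0.54, with a 95% interval of -3.01 to -0.74 (limma p = 0.0026, adjusted p = 0.42), and the exact permutation p was 0.012, the smallest this design allows. Without the 3 libraries that stood apart, it was 0.018, and when 1 mouse was left out it was 0.018 to 0.036. These are the smallest values that the reduced groups allow. Groups that do not overlap stay apart when mice are left out, so this does not test how stable the result is. With the deposited normalized counts, the log2 change was -1.01 (limma adjusted p = 0.78). In the comparison of the genotypes with control shRNA, the log2 change was 1.398 ± 0.56 (limma p = 0.022, adjusted p = 0.31; exact permutation p = 0.036, 0.057 without those libraries and up to 0.095 when 1 mouse was left out, being above 0.05 without WT shCT replicate 3, 5, 11 or 15 or 5xFAD shCT replicate 16 or 18), and the interaction of genotype and treatment was -1.94 ± 0.74 (limma p = 0.018, adjusted p = 0.24). With the deposited normalized counts, the change by genotype was 0.43 (limma adjusted p = 0.75) and the interaction -0.96 (limma adjusted p = 0.75). With the mature share of the library as a covariate, they were 1.01 (limma adjusted p = 0.86) and -1.26 (limma adjusted p = 0.70). These fits share the 5xFAD shCT mice. The locus had 4 to 37 reads per library, and the Wilson 95% interval was 0.0201% to 0.0489% in the lowest 5xFAD shCT mouse and 0.0134% to 0.0376% in the highest 5xFAD shRTP801 mouse, so this pair of mice cannot be separated at this depth.

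The trailer reads of Arg-ACG-1-3, chosen after their values were seen, were compared in the same way. They were 4.29, 4.13 and 3.48 per 10000 precursor reads in 5xFAD shCT mice and 0 to 3.37 (median 1.34) in 5xFAD shRTP801 mice, so these groups did not overlap (exact permutation p = 0.012, unadjusted, and 0.036 without the 3 libraries that stood apart). It was 0.054 without 5xFAD shRTP801 replicate 2, 8 or 19, by exact permutation. WT shCT mice had 1.05, 0, 1.64, 0 and 5.22, and WT shRTP801 mice 0, 2.16, 0.916 and 2.55. The highest value of all was in a WT shCT mouse, and the groups with control shRNA overlapped (exact permutation p = 0.14). All 3 libraries that stood apart had 0 reads, and a count of 0 allows up to 0.0942 to 0.230 per 10000 in the 4 libraries without a read. The counts themselves were 21 to 26 in 5xFAD shCT mice and 0 to 21 in 5xFAD shRTP801 mice.

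**Figure D4:**
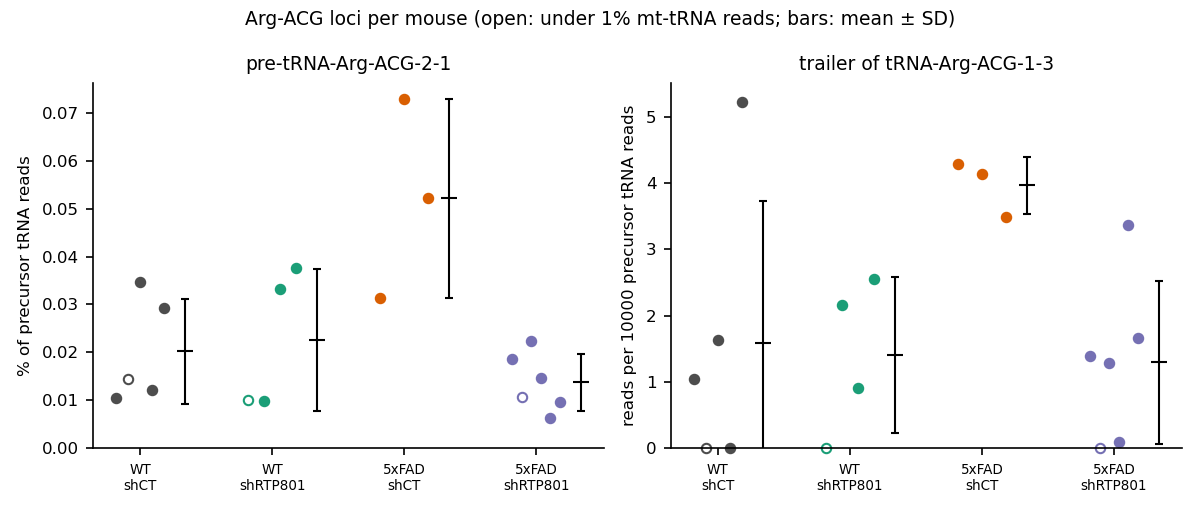
Pre-tRNA-Arg-ACG-2-1 as a percentage of precursor tRNA reads (left) and trailer reads of Arg-ACG-1-3 per 10000 precursor tRNA reads (right), by group. Each point is a mouse, open points are the 3 libraries with under 1% mitochondrial tRNA reads, and bars give the mean and SD. In both panels, the 3 5xFAD shCT mice lie above all 6 5xFAD shRTP801 mice, and WT mice overlap with both 5xFAD groups on the left.

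The genotypes were also compared among mice that received the shRNA against RTP801. The 4 families together had 3.42% ± 1.09 of mature reads in 5xFAD shRTP801 (n = 6) and 3.66% ± 1.48 in WT shRTP801 mice (n = 4, exact permutation p = 0.74), and 0.838% ± 0.183 and 0.954% ± 0.298 of precursor reads (exact permutation p = 0.47). In limma, 0 families, 0 mature tRNAs and 0 loci had an adjusted or an unadjusted p under 0.05 (unadjusted 0% of mature families, 6.25% of precursor families, 0.538% of mature tRNAs and 2.1% of loci). edgeR and DESeq2 also gave 0 of the arginine tRNAs at either level. Of all features, edgeR gave an unadjusted p under 0.05 for 1 of 49 mature families, 1 of 48 precursor families, 1 of 186 mature tRNAs and 9 of 333 loci. DESeq2 gave 2, 2, 3 and 9. The median log2 change was -0.07 in the 14 mature tRNAs, against -0.12 over the 186, and -0.24 in the 19 loci, against -0.03 over the 333. Without the 3 libraries that stood apart, the pooled mature share had the opposite sign (0.080 on the log2 scale, against -0.098) and the precursor share was -0.045, and without WT shRTP801 replicate 4, 1 of these libraries, it was 0.20 and the precursor share 0.0041 (-0.19 with all mice). As percentages of all reads, the values were 0.12 and 0.0036. The locus with the smallest p was again Arg-ACG-2-1, with a log2 change of -0.54 ± 0.49 (limma adjusted p = 0.99). The interaction of genotype and treatment had an unadjusted p under 0.05 for 1 of the 14 mature tRNAs, Arg-TCG-1 (1.32 ± 0.59, limma adjusted p = 0.39, beside 9.68% of 186), 1 of the 19 loci, Arg-ACG-2-1 (15.3% of 333), and 0 families (8.16% of mature and 20.8% of precursor families). At an unadjusted p under 0.05, edgeR gave mature Arg-ACG and the locus Arg-ACG-2-1 in the interaction and DESeq2 the locus alone, beside 14.3% of mature families in edgeR and 15% of loci in both, and neither gave an adjusted p under 0.05. The interaction of Arg-TCG-1 ran from 0.36, with the mature share of the library as a covariate, to 2.35, with deposited normalized counts, and had an unadjusted p under 0.05 in 16 of 29 alternatives. It was 1.49 without the 3 libraries that stood apart. The median interaction was 0.51 in the 14 mature tRNAs, against -0.36 over the 186, and 0.09 in the 19 loci, against -0.01 over the 333.

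The width of the intervals limits what these comparisons can show. For Arg-CCG, the limma 95% interval of the log2 change by genotype under the control shRNA was -0.45 to 0.50 in mature and -0.59 to 0.47 in precursor reads. For Arg-CCT, it was -1.75 to 0.73 and -2.29 to 1.04. Changes as large as these bounds were therefore not excluded by the fits.

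**Figure D5:**
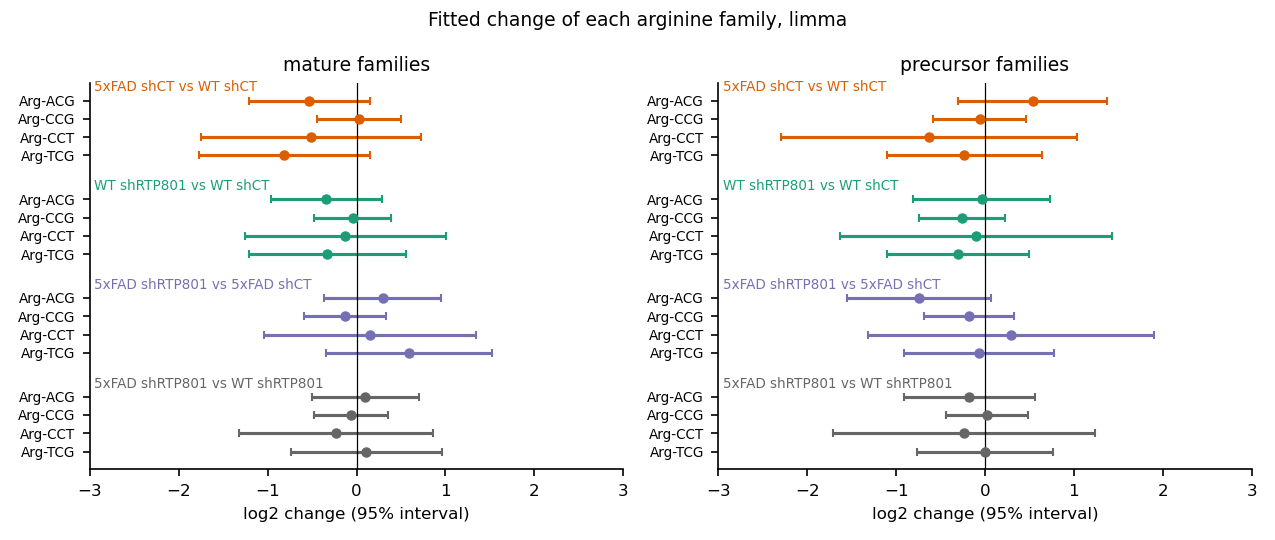
Log2 change of each arginine family with its 95% interval (limma, all 18 mice in 1 fit) in mature (left) and precursor (right) tRNA reads, for the 4 comparisons between groups. All 32 intervals include 0, and those of Arg-CCG are the narrowest and those of Arg-CCT the widest in each comparison.

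The part of the tRNA covered and the ratio of precursor to mature reads were compared in the same way. Of the 16 read types of the 4 families, 0 passed adjustment in any of the 4 comparisons or the interaction, and the only one with an unadjusted p under 0.05 was the internal reads of Arg-TCG (5xFAD shCT against WT shCT, with 2.62% of 191 read types, and the interaction, with 6.81%, while the other comparisons had 2.09%, 1.57% and 3.66%). They made up 0.197%, 0.157%, 0.388%, 0.191% and 0.426% of the family in WT shCT mice, 0.153%, 0.934%, 0.533% and 0.433% in WT shRTP801 mice, 0.491%, 1.22% and 0.372% in 5xFAD shCT mice and 0.120% to 0.409% (median 0.324%) in 5xFAD shRTP801 mice. The log2 odds of an internal read were 1.29 ± 0.61 higher in 5xFAD shCT than in WT shCT mice (limma adjusted p = 0.72), where 5xFAD shCT replicate 18 lay below 2 WT shCT mice, and the interaction was -1.89 ± 0.81 (limma adjusted p = 0.52). The 3 libraries that stood apart held the lowest values of their groups, at 0.120%, 0.153% and 0.157%. Without them, the change was 1.12 (limma adjusted p = 0.50) and the interaction -1.97 (limma adjusted p = 0.10).

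Precursor reads per 1000 mature reads were 1.38, 2.36, 1.70, 1.92 and 3.33 for Arg-ACG in WT shCT mice, 2.07, 2.61, 5.17 and 3.74 in WT shRTP801 mice, 2.96, 6.20 and 2.78 in 5xFAD shCT mice and 1.61 to 3.27 (median 2.15) in 5xFAD shRTP801 mice. In limma, 0 of the 4 families passed adjustment in any comparison (0% of 47), and only the interaction for Arg-ACG had an unadjusted p under 0.05 (-1.40 ± 0.61, limma adjusted p = 0.61, beside 4.26% of 47, and -1.73 without the 3 libraries that stood apart, limma adjusted p = 0.18). Between groups, 6.38% of 47 had an unadjusted p under 0.05 in 5xFAD shCT against WT shCT mice, 4.26% in 5xFAD shRTP801 against 5xFAD shCT mice and 0% in the others, and 0 of the 4 were among them. For Arg-CCT, Arg-CCG and Arg-TCG, the ratio was highest in 5xFAD shRTP801 replicate 7, with 4.26, 3.84 and 1.94 per 1000. The library of that mouse was among the 3 that stood apart. These 3 libraries had 2.63 to 4.26 in Arg-CCT, 2.44 to 3.84 in Arg-CCG and 1.27 to 1.94 in Arg-TCG. The other 15 reached at most 1.95, 2.23 and 1.19.

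2 other sets were described beside these families. Arg-TCT, the arginine family that includes pre-tRNAs with an intron, had 0.0874%, 0.165% and 0.0813% of precursor reads in 5xFAD shCT mice and 0.00628% to 0.0785% (median 0.0546%) in 5xFAD shRTP801 mice, which did not overlap, as held for 8.33% of the 48 precursor families (exact permutation p = 0.024, unadjusted). Its limma log2 change was -1.64 ± 0.96 (adjusted p = 0.57), beside a range of -0.75 to 0.29 in the 4 families described here. These values include the locus without an intron, Arg-TCT-4-1, which held 26.2% of the precursor reads of the family on average. On the log2 scale, the ratio of the 4 families to Arg-TCT among precursors averaged 3.21 ± 0.339 for the 3 5xFAD shCT mice and 4.66 ± 1.74 for the 6 5xFAD shRTP801 mice (exact permutation p = 0.24). Without 5xFAD shRTP801 replicate 7, 1 of the libraries that stood apart, the latter mean was 4.13 and the difference 0.92 in place of 1.45 (exact permutation p = 0.29). Of the 8 families with an anticodon that begins with A and is edited to inosine, to which Arg-ACG belongs, 0 passed adjustment in limma in either class in any comparison. Of these, Ile-AAT and Ser-AGA had an unadjusted p under 0.05 among mature reads, and Ser-AGA and Pro-AGG among precursor reads, in at least 1 comparison or the interaction, as had 14.3% of the 49 mature and 25% of the 48 precursor families.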

How the data were processed

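Hydro-tRNA-seq of 18 libraries was analysed. The deposited signal is normalized counts per tRNA and read type: the authors counted reads with tRAX and divided each library by a size factor. The submitters' processing notes name mm39, and the aligner is not given in the sources used here. Positions and sequences of the tRNAs were not used here.

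Every value was a whole multiple of the smallest non-zero value of its library (100% of values, tolerance 0.001 of a read), so reads were recovered by division. Near-identical copies of small RNA genes (324 entries) were left out of library totals. Features with a mean under 0.001% of their class were dropped, and log2(percentage + 0.001%) of the rest was fitted in 1 limma model of the 18 mice (limma 3.58.1, R 4.3.3), adjusting p by Benjamini-Hochberg over all features. Families needed a mean of 100 mature reads for read types, as log2 odds with 0.5 reads added, and 10 precursor reads for ratios. Count models (edgeR 4.0.16, DESeq2 1.42.0) of these reads were alternatives. Shares were compared by exact permutation of group means (Python 3.11.15, scipy 1.17.1). Replicates are separate mice. The script was tested on simulated data.

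The members, lists and tests were chosen with earlier results of these data known. Named were the 4 families, every mature tRNA, the 3 highest loci per anticodon and the locus with the smallest p in each comparison. The correlations, the trailer test and the comparison without the 3 libraries that stood apart were added after the data were seen.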

Additional observations from a re-analysis of the deposited data

Results flagged for a closer look

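In groups of 4 to 6 mice, 105 groups of values over 35 measures were searched for a mouse far from the others, and 8 were found, where chance gives about 1 in 20. Of these, 6 were in the libraries with under 1% mitochondrial tRNA reads. WT shRTP801 replicate 4 had 0.321% of mature reads in Arg-TCG-2 (the nearest mouse of its group had 0.114%), 51.0% of Arg-CCG in Arg-CCG-3 (nearest 81.4%) and 2.63 precursor reads per 1000 mature reads of Arg-CCT (nearest 1.05). 5xFAD shRTP801 replicate 7 had 4.26 precursor reads per 1000 mature reads of Arg-CCT (nearest 0.974), 3.84 of Arg-CCG (nearest 1.53) and 1.94 of Arg-TCG (nearest 0.842). The other 2 were precursor Arg-ACG in WT shCT replicate 15, with 0.675% (nearest 0.366%), and precursor Arg-CCG in 5xFAD shRTP801 replicate 14, with 0.277% (nearest 0.178%).

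In 4 results, limma's interaction of genotype and RTP801 silencing had an unadjusted p under 0.05, and 0 passed adjustment. At that level, limma called 9.68% of all mature tRNAs, 15.3% of loci, 6.81% of read types and 4.26% of ratios. These were mature Arg-TCG-1 (1.32 on the log2 scale, limma adjusted p = 0.39), pre-tRNA-Arg-ACG-2-1 (-1.94, limma adjusted p = 0.24), the internal reads of Arg-TCG (-1.89, limma adjusted p = 0.52) and the ratio of precursor to mature reads of Arg-ACG (-1.40, limma adjusted p = 0.61). When 5xFAD shCT replicate 16 was left out, the unadjusted limma p of these 4 was 0.14, 0.057, 0.12 and 0.13.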

How the results depend on the processing

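The count of arginine tRNAs past adjustment stayed at 0 under all 598 alternatives to its 30 values, with edgeR and DESeq2 included, and the smallest adjusted p was 0.085, for the interaction of Arg-ACG-2-1. The pooled share of the 4 families never passed the exact test (smallest p 0.14 over 104 alternatives), and its sign was not stable. On the log2 scale, the mature comparison of 5xFAD shRTP801 with WT shRTP801 was -0.10 and became 0.12 as a percentage of all reads and 0.080 without the 3 libraries that stood apart. The precursor comparison of 5xFAD shRTP801 with 5xFAD shCT was -0.23 and became 1.25 as a percentage of all reads and 1.53 with deposited normalized counts. In 5xFAD shRTP801 replicate 7, 1 of the libraries that stood apart, precursors were 1.69% of all reads, against at most 0.463% in the rest of its group. The precursor comparison of 5xFAD shRTP801 with WT shRTP801 was -0.19 and became 0.0036 and 0.013 in the same 2 settings.

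Leaving out 1 mouse gave, in mature reads, -0.45 to 0.028 for WT shRTP801 against WT shCT, -0.090 to 0.53 for 5xFAD shRTP801 against 5xFAD shCT and -0.28 to 0.20 for 5xFAD shRTP801 against WT shRTP801. In precursor reads, it gave -0.25 to 0.0046 for 5xFAD shCT against WT shCT, -0.33 to 0.0077 for WT shRTP801 against WT shCT and -0.33 to 0.0041 for 5xFAD shRTP801 against WT shRTP801. Of the 40 fitted family changes, 30 took the opposite sign under at least 1 alternative, and among the 13 single results named, precursor Arg-ACG in 5xFAD shRTP801 against 5xFAD shCT became 0.094 with deposited normalized counts. The cause was not tested. Arg-ACG-2-1 kept its sign in 5xFAD shRTP801 against 5xFAD shCT under all 21 alternatives, with an unadjusted p under 0.05 in 20 of them, the exception being deposited normalized counts. Its change in 5xFAD shCT against WT shCT had an unadjusted p under 0.05 in 15 of 20 alternatives, and its interaction in 26 of 29. No paired analysis was possible because the groups share no replicate numbers. Precursor loci rest on few reads, which limits what they can show.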
